A study of Mus musculus with 12 samples.

Results

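Astrocyte-enriched cultures were exposed to vasoactive intestinal peptide (VIP), and their RNA was compared with that of cultures given PBS. The comparison used 6 of the 12 libraries of the study, 3 with PBS and 3 with VIP, all carrying a control lentivirus. The cells came from forebrains of C57BL6/J pups of postnatal day 0 to 2, were shaken at 7 days in vitro to remove other glia, and were replated in A10 medium with 10% horse serum. The virus, pCIG3, is a vector that expresses GFP and was left on the cells for 5 days. PBS or VIP at 0.5 µM followed for 30 min, with 90 min of recovery, so that RNA was taken 2 h after VIP was added. The other 6 libraries carried ACREB, which blocks the transcription factor CREB in a dominant-negative way, with the same PBS or VIP treatment, and here they serve the estimate of spread. Libraries are numbered 1 to 3 in each group, and the labels do not say whether a number is a separate culture or animal. P-values are thus set by the spread among these libraries alone, and that spread may be technical. Of 55573 genes in the table, 16761 passed an expression filter and were tested.

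VIP is a secreted peptide that binds receptors coupled to the stimulatory G protein Gs. Gs switches on adenylyl cyclase, cyclic AMP (cAMP) rises, protein kinase A is released from its regulatory subunits, and CREB becomes phosphorylated at gene promoters that hold a cAMP response element (CRE). Phosphodiesterases break cAMP down again, and several of them are themselves products of CRE genes, as are early transcription factors and neuropeptide precursors. In astrocytes VIP is best known as a signal from interneurons that mobilises glycogen.

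The full CRE is the palindrome TGACGTCA, which reads the same on both strands. It was searched for in windows from 250 bases before to 50 bases after annotated gene starts (RefSeq, GRCm38.p6), and 11835 of the 16761 tested genes had a window. The motif stood in 3.47% of these genes. It stood in 17 of 144 genes that rose with VIP and had a window (11.8%), and in 2 of 77 that fell (2.60%). Among rises of at least 2-fold the share was 15.2%, and among smaller rises it was 7.69%. TGACG or its reverse complement CGTCA without the full motif stood in 30.2% of all tested genes with a window, 40.3% of rises and 23.4% of falls. Genes with several starts have several windows, on average 1.28 over all tested genes and 1.34 for rises. A match describes the letters only. The stretches below are examples, from 7 genes that rose and then the 2 that fell, with the full motif in capitals. Other rises described later, such as Tinf2 and Kctd8, also hold the full motif and are not printed.
Dio2, chr12:90739100-90739159, minus strand: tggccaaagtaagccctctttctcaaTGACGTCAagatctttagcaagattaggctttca
Zdbf2, chr1:63273184-63273243, plus strand: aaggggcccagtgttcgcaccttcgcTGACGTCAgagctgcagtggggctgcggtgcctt
Cartpt, chr13:99900762-99900821, minus strand: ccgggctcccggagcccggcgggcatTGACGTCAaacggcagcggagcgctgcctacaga
Hhip, chr8:80058050-80058109, minus strand: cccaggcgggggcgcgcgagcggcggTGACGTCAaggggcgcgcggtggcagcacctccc
Maff, chr15:79347465-79347519, plus strand: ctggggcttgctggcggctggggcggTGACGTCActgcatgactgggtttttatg
Chgb, chr2:132781544-132781603, plus strand: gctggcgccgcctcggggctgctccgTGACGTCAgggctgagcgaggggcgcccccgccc
Plk2, chr13:110394956-110395015, plus strand: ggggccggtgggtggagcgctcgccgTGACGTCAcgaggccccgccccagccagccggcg
Lmcd1, chr6:112273602-112273661, plus strand: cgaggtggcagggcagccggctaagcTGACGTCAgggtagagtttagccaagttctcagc
Dusp8, chr7:142095358-142095417, minus strand: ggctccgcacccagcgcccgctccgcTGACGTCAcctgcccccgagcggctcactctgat

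VIP raised 184 genes, 1.1% of those tested, and lowered 90, or 0.537%, so that 1.63% changed in either direction. The test was edgeR's quasi-likelihood test with the replicate number as a block and Benjamini-Hochberg adjustment over the 16761 genes and a threshold of 0.05, and every adjusted p given here is from it unless another fit is named. The rises were larger than the falls. Of the rises 105 reached 2-fold, 58 lay from 1.5- to 2-fold and 21 below 1.5-fold, with a median of 2.09-fold. Of the falls 4 reached 2-fold, 43 lay from 1.5- to 2-fold and 43 below, with a median of 1.51-fold. Without the block the test called 71 rises and 11 falls. With the block but the 6 control-virus libraries alone it called 0 and 0 (smallest adjusted p = 0.135), with 482 genes higher and 287 lower at an unadjusted p under 0.05, while DESeq2 with the block on all 12 libraries called 364 and 204. Without replicate number 1 it called 10 rises and 0 falls, with 635 higher and 494 lower at an unadjusted p under 0.05. The 113 rises and 79 falls called only with the block had median log2 fold changes of 0.96 and -0.58, against a median of -0.02 over all genes tested. The plot of fold change against level shows the falls as a narrow band close to the grey genes and the rises as a broad cloud.

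**Figure D1:**
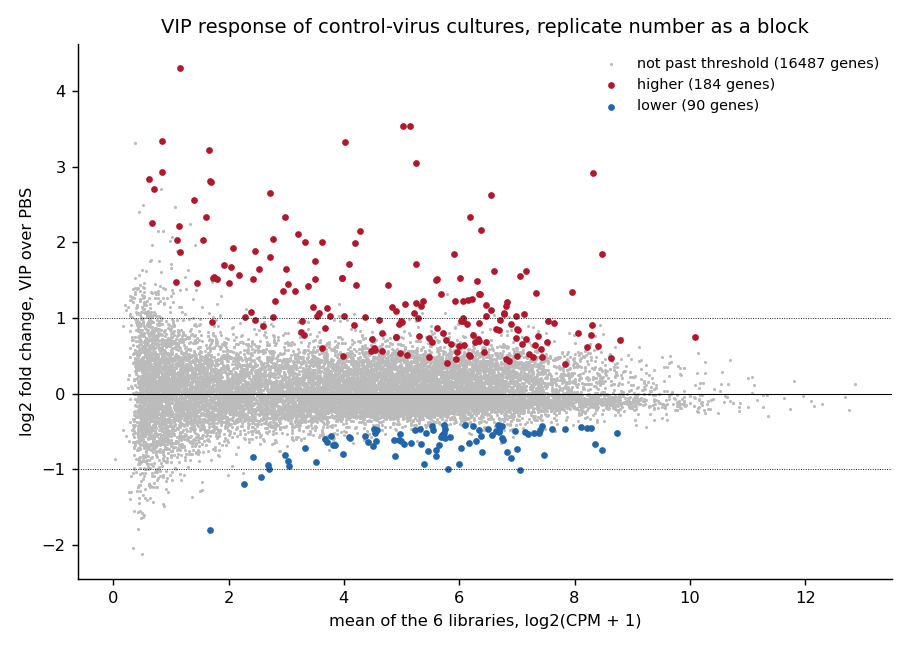
Each point is 1 of the 16761 tested genes, with its mean level over the 6 control-virus libraries as log2(CPM + 1) on the x axis and its log2 fold change of VIP over PBS on the y axis. The 184 genes that rose (red) spread up to a log2 fold change of 4.30, whereas all but 4 of the 90 that fell (blue) lie above -1, the lower dotted line at 2-fold.

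Library totals ran from 16571398 to 20529238 counts over the 12 libraries. Control PBS 2 stood apart from the rest, at 81.2 on the first principal component (38.1% of variance), and transcript GC content and length explained 42.4% of its departure from the median library. In numbered pair 2 the middle 50% of all genes had differences from -0.41 to 0.63 on the log2 scale, against -0.14 to 0.17 in pair 1 and -0.14 to 0.13 in pair 3. Control PBS 2 was the highest PBS library for 70 of the 90 falls (77.8%, against 46.3% of all tested genes) and the lowest for 98 of the 184 rises (53.3%, against 40.3%). Without it 226 rises and 86 falls were called, and 161 and 74 of the original calls were among them. The falls were also rich in GC, with a median transcript GC content of 56.0% against 47.8% for the rises and 49.6% for all tested genes. With offsets for GC content and length, 179 of the 184 rises and 75 of the 90 falls still passed. The calls leaned most on 2 other libraries, control PBS 1 and control VIP 1. Without the first, 78 rises and 15 falls remained, and without the second, 78 and 12, all of them among the original calls. Of the rises 50 and of the falls 26 overlap a gene on the opposite strand, against 33.9% of all tested genes. The strand setting of the counting is not stated, so the counts of such genes are uncertain. Among the genes named below with a value they are Dio2, Zdbf2, Tinf2, Kctd8, Txndc11, Il1b, Npr3, Adamts9, Crem, Sik2, Man2a1, Zfyve9, Mest, Sybu, Fzd6, S1pr3, Maf, Fgfr3, Tgfb3, Zyx, Dusp8, Hdac7, Ccn2, Crb2, Arhgef4, Plekhh3, St3gal4, Palm3, Rapgef4, Gli1, Gli3, Gas1, Hhip, Chrm2, Olig1, Sox8, Nkx2-2, Hdac4, Edn1 and Syt4.

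The receptors and the cAMP machinery showed no call. Vipr1, which encodes the VIP receptor VPAC1, had 69 counts over the 12 libraries and was not tested. Vipr2, the gene of VPAC2, had 16 to 43 counts with PBS and 27 to 44 with VIP, and the log2 fold change was 0.32 (adjusted p = 0.61). Adcyap1r1 encodes PAC1, a receptor of the related peptide PACAP that also binds VIP, and it measured 79.7, 98.0 and 109.9 CPM (counts scaled to library size) with PBS and 66.3, 75 and 103 CPM with VIP. These overlapping values gave a log2 fold change of -0.25 (adjusted p = 0.30). Of 22 tested Gs-coupled receptors and adenylyl cyclases 0 passed in either direction, and of 17 protein kinase A subunits, inhibitors and anchoring proteins 0 passed. The median log2 fold changes of these lists were -0.21 and 0.14. Over all genes, the same edgeR test gave 2169 genes at an unadjusted p under 0.05. The counts of calls in each list here and below stand against 1.1% of all tested genes higher and 0.537% lower.

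Some enzymes that end the cAMP signal rose. Of 17 tested phosphodiesterases 3 rose and 0 fell, with a list median of 0.37. Pde10a, which hydrolyses both cAMP and cGMP, measured 29.8, 23.3 and 36.6 CPM with PBS and 160.3, 122 and 119.6 CPM with VIP. The VIP libraries all lay far above the PBS libraries, and the log2 fold change was 2.17 (SE 0.14, adjusted p = 6.03e-05). Pde4d, a cAMP-specific enzyme, rose from 15.8, 11.7 and 25.6 CPM to 70.2, 48.3 and 51.5 CPM, again with no overlap. Pde4b, of the same subfamily, showed a moderate rise from 62.9, 51.9 and 64.0 to 85.0, 91.8 and 75.1 CPM (log2 0.50, SE 0.11, adjusted p = 0.045). The groups did not overlap, but the Pde4b call was lost without control PBS 2 (adjusted p = 0.055) and passed in 2 of 12 fits that each left out 1 library. Pde10a and Pde4d passed in all 12.

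Among the CREB family, its coactivators and their kinases, 2 of 16 tested genes rose and 1 fell (list median 0.18). Crem, which encodes a CREB relative with repressor forms, rose from 27.5, 16.5 and 28.7 CPM to 75.4, 49.5 and 45.6 CPM. Sik2, a kinase that keeps CREB coactivators out of the nucleus, rose from 41.8, 39.8 and 49.0 to 105, 81.9 and 76.3 CPM. Crtc3, one of those coactivators, fell from 90.4, 98.8 and 90.6 to 67.8, 64.0 and 68.9 CPM. For all 3 genes the VIP and PBS libraries did not overlap, and the log2 fold changes were 1.22, 1.00 and -0.48 (adjusted p = 0.0057, 0.0033 and 0.024). The Crtc3 fall passed in 3 of 12 fits that each left out 1 library, and Crem was lost without control PBS 1 and without control VIP 1. Sik1, the cAMP-induced relative of Sik2, measured 5.87, 12 and 7.96 CPM with PBS and 27.2, 16.4 and 15.1 CPM with VIP. The groups did not overlap, yet the adjusted p of 0.0505 missed the threshold. It passed with GC and length offsets (log2 1.36, adjusted p = 0.0043), with DESeq2 (adjusted p = 0.00069) and without control PBS 2 (adjusted p = 0.0073). Creb1 itself had a log2 fold change of 0.28 (adjusted p = 0.57).

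Of 30 tested genes known as cAMP/CREB targets 13 rose and 1 fell, with a median log2 fold change of 0.55. Without the block 6 rose and 0 fell, and without control PBS 1, or without control VIP 1, 9 rose and 0 fell. Every call of this list also belongs to another list here. Pde10a, Pde4d and Pde4b are phosphodiesterases, and Crem is of the CREB family. The 3 Nr4a genes and Egr1 are also in the immediate-early list, and Fosb is in the AP-1 list. Dio2, Ppargc1a, Ppp1r3c, Vgf and Crh belong to the thyroid, insulin, glycogen and neuropeptide lists. The 3 Nr4a genes, which encode orphan nuclear receptors of the immediate-early class, all rose. Nr4a2 (chromosome 2, 57106830 to 57124003) went from 4.10, 4.25 and 6.69 CPM to 58.2, 62.0 and 54.1 CPM, a log2 fold change of 3.54 (SE 0.19, adjusted p = 1.56e-05). Nr4a3 went from 49.5, 34.8 and 194 CPM to 519, 470.2 and 652 CPM (log2 2.92, SE 0.36, adjusted p = 0.0022). PBS library 3 was well above the other two for Nr4a3, and still below every VIP library. Nr4a1 went from 17.9, 49.2 and 61.5 CPM to 65.0, 147 and 131 CPM (log2 1.48, SE 0.19, adjusted p = 0.0027). The lowest VIP library of Nr4a1 barely exceeded the highest PBS library, while within each number VIP was higher by a wide margin. Neither Nr4a1 nor Nr4a3 passed without the block (adjusted p = 0.35 and 0.13), and both passed in all 12 fits that left out 1 library.

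Dio2 encodes the deiodinase that converts thyroxine to active thyroid hormone, and in brain it is an astrocyte enzyme. It rose from 5.92, 2.7 and 6.85 CPM to 105, 50.9 and 34.2 CPM (log2 3.54, SE 0.33, adjusted p = 0.00052). The VIP libraries spread widely, but all were far above PBS. Of 22 tested genes of thyroid hormone handling and response, Dio2 and Trh rose and 0 fell, with a list median of 0.00. Offsets for GC content and length gave 6 rises and 0 falls in this list. Ppargc1a, the coactivator PGC-1alpha of mitochondrial biogenesis, rose from 49.0, 20.6 and 40.9 to 93.3, 82.8 and 70.6 CPM (log2 1.22, SE 0.19, adjusted p = 0.0081). It had the same direction in each pair and no overlap, passed in all 12 fits that left out 1 library, and did not pass without the block (adjusted p = 0.14). Of the 31 tested insulin, FoxO and mitochondrial biogenesis genes, 1 other changed: the forkhead factor gene Foxo6 fell from 4.57, 6.04 and 5.31 to 3.02, 1.75 and 2.11 CPM (adjusted p = 0.030, and 0.059 without control PBS 2). Foxo6 passed in 2 of 12 fits that left out 1 library. The nuclear receptor gene Rorb, listed with the circadian clock, rose by 2.33 on the log2 scale and was the single call among 25 clock genes. Rorb was lost without control PBS 1 and without control VIP 1, and the list had 0 calls without the block. Offsets for GC content and length gave 2 rises and 2 falls among the clock genes. The clock gene Per1, a classical cAMP target, measured 31.6, 63.9 and 62.3 CPM with PBS and 43.7, 59.4 and 67.9 CPM with VIP. Its log2 fold change was 0.15 (adjusted p = 0.59).

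**Figure D2:**
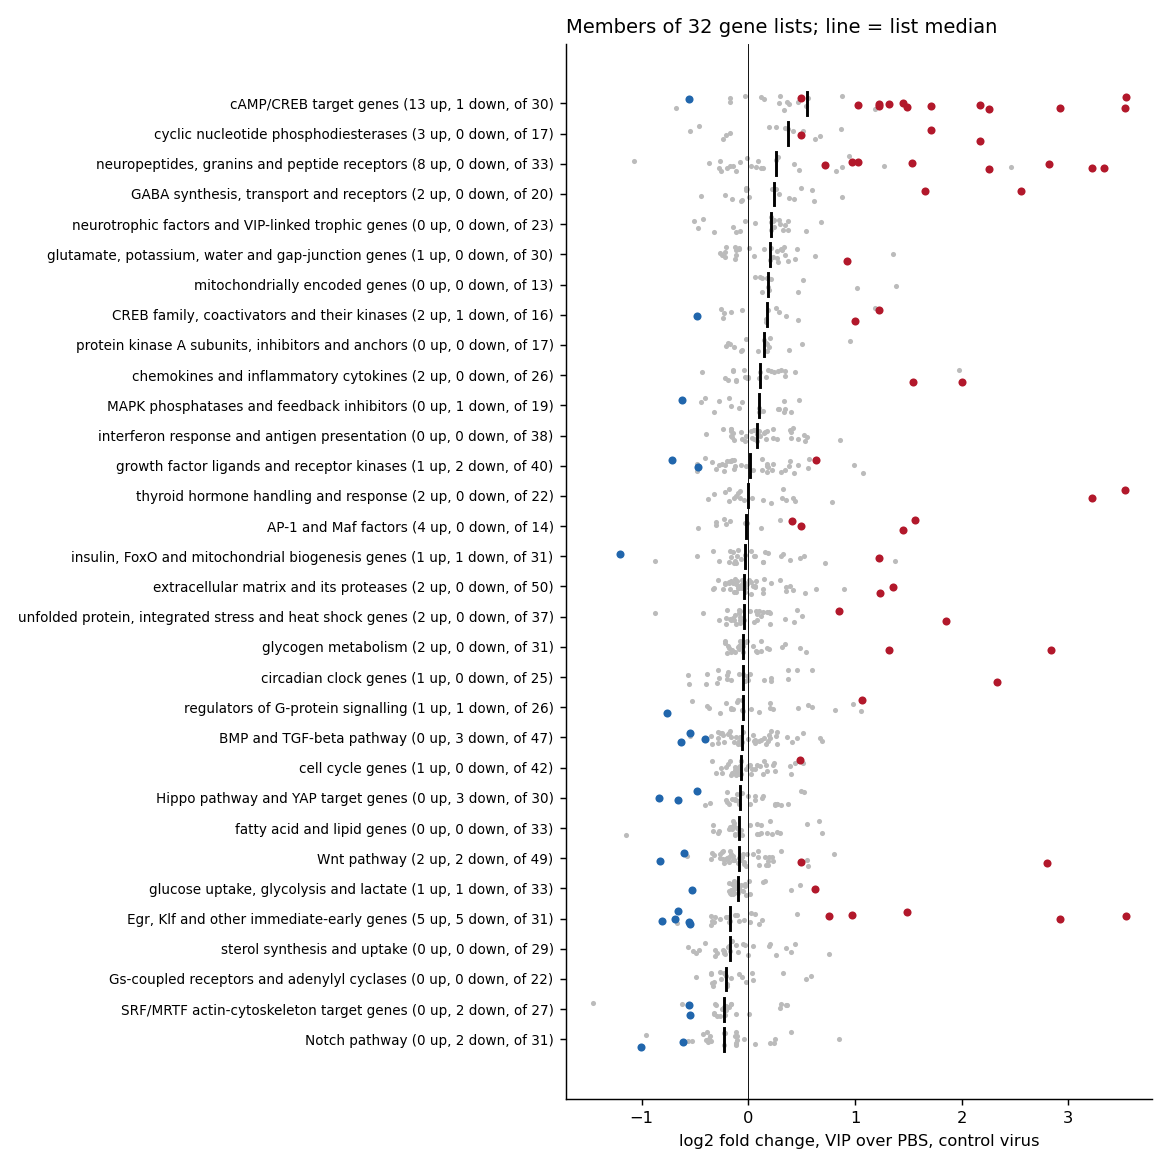
Members of 32 gene lists by their log2 fold change of VIP over PBS, with genes that rose in red, genes that fell in blue, other tested genes in grey and the list median as a black bar; lists are ordered by that median. The cAMP/CREB targets, with 13 of 30 higher, stand at the top with a median of 0.55, and the Notch pathway, with 2 of 31 lower, stands at the bottom with -0.23.

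Early transcription factors changed in both directions. Of 14 tested AP-1 and Maf factors 4 rose and 0 fell: Maff, Fosb, Fosl2 and Maf. Maff, a small Maf protein with no activation domain, rose from 61.5, 87.3 and 54.1 to 211, 191 and 183 CPM (log2 1.56, SE 0.14, adjusted p = 0.00046). Fosb rose from 4.16, 5.81 and 1.91 to 9.82, 11.7 and 9.71 CPM (log2 1.45, SE 0.22, adjusted p = 0.0071). In both genes every VIP library was above every PBS library. Fos, the best-known member, did not pass, at 28.5, 40.6 and 31.5 CPM with PBS and 55.4, 31.0 and 36.6 CPM with VIP (log2 0.30, adjusted p = 0.49). Fosl2 (0.49) and Maf (0.41) were at the threshold, with adjusted p of 0.048 and 0.0498, and without control PBS 2 Maf was lost (adjusted p = 0.051). They passed in 2 and 0 of 12 fits that left out 1 library, and the list held 2 rises without control PBS 1 or control VIP 1. The list median was -0.02 and turned to 0.17 with GC and length offsets.

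Of 31 tested Egr, Klf and other immediate-early genes 5 rose and 5 fell. Besides the 3 Nr4a genes the rises were Klf4 and Klf5, a pair of related zinc-finger factors. Klf5 rose from 26.3, 27.4 and 31.8 to 44.6, 49.9 and 49.9 CPM (log2 0.76, SE 0.09, adjusted p = 0.0017), and Klf4 rose by 0.97 (adjusted p = 0.0024). Both had tight replicates and passed without the block (adjusted p = 0.017 and 0.025). The falls were the growth-response factor gene Egr1 (-0.56), Klf11 (-0.68), the activity-dependent factor gene Npas4 (-0.81), Srf (-0.55) and the matricellular gene Ccn2 (-0.66). Egr1, Klf11 and Npas4 were not picked by the naming rule but with their values known. Egr1 and Npas4 were lost without control PBS 2 (adjusted p = 0.053 and 0.058) and with GC and length offsets (0.22 and 0.13). None of the 5 falls passed without the block, and without control PBS 1 or control VIP 1 all 5 rises and 0 falls remained. Egr1 went from 16.1, 24.8 and 28.8 to 9.77, 17.9 and 20.2 CPM, so that the groups overlapped and the fall is seen within numbers only. Npas4 went from 8.62, 8.62 and 8.92 to 4.45, 5.70 and 4.80 CPM, with no overlap. Of 19 MAPK phosphatases and feedback inhibitors the single call was a fall of Dusp8 (-0.62), a phosphatase of stress-activated kinases (adjusted p = 0.035, and 0.059 without control PBS 2). Dusp8 passed in 2 of 12 fits that left out 1 library. With GC and length offsets 5 genes of this list rose and 2 fell. Without control PBS 2 there were 3 rises and 0 falls.

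Peptide precursors and secretory genes made the largest group of rises besides the cAMP targets. Of 33 tested neuropeptides, granins and peptide receptors 8 rose and 0 fell, with a list median of 0.26. These calls were 24.2% of the list, against 1.63% of all tested genes called in either direction. Without the block 2 passed, without control PBS 1 also 2, and without control VIP 1 there were 3. Trh, the thyrotropin-releasing hormone precursor, went from 0.208, 0.345 and 0.743 CPM to 5.27, 3.20 and 3.27 CPM (log2 3.23, SE 0.52, adjusted p = 0.0097). Cartpt, precursor of the CART peptides, went from 0.208, 0.46 and 1.01 to 4.91, 2.80 and 3.80 CPM (log2 2.82, SE 0.54, adjusted p = 0.025). With PBS both were near the detection limit, and with VIP both were clearly present in every library. Vgf, a granin-like peptide precursor, rose from 37.9, 90.4 and 51.4 to 116, 126 and 103 CPM (log2 1.02, SE 0.18, adjusted p = 0.014). PBS library 2 was the highest of its group, and the rise without it was 1.20. Chgb, the granule protein chromogranin B, gave a moderate rise seen with the block only, from 39.7, 47.4 and 33.8 to 70.7, 84.1 and 47.2 CPM (log2 0.71, SE 0.10, adjusted p = 0.0044, against 0.48 without the block). VIP library 3 lay below PBS library 2, yet VIP was higher within each number, and the call held in all 12 fits that left out 1 library.

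Among the 8 rises were a pair of peptide receptor genes. Tacr1, the substance P receptor, went from 1.25, 1.78 and 5.84 to 32.1, 19.7 and 30.6 CPM (log2 3.33, SE 0.34, adjusted p = 0.00078). Npr3, which clears natriuretic peptides, went from 9.66, 4.02 and 8.97 to 27.9, 20.2 and 16.7 CPM (log2 1.53). No VIP library overlapped a PBS library in either gene. The remaining rises of this list, chosen after their values were seen, were Crh (2.26), the corticotropin-releasing hormone precursor, which stayed below 2 CPM in every library and was lost without control PBS 2 (adjusted p = 0.062), and Edn1 (0.97), the endothelin-1 precursor. Further secretory genes, also chosen after their values were seen, were the vesicle calcium sensor Syt4 (2.00), the vesicle protein Sv2c (2.11), the growth factor Fgf7 (1.09) and the secreted Angptl2 (1.50). All 4 passed over all genes, and Syt4, Sv2c and Angptl2 did so in all 12 fits that left out 1 library. Other receptors chosen in this way were the muscarinic receptor Chrm2 (2.33), the vitamin D receptor Vdr (1.89) and the alpha-1A adrenergic receptor Adra1a (1.01, passing in 1 of 12 such fits).

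Some G-protein regulators and transmitter genes changed. Of 26 tested regulators of G-protein signalling, Rgs4 rose and Rgs3 fell, both accelerators of GTP hydrolysis by G-protein alpha subunits. Rgs4 went from 8.16, 6.78 and 6.16 to 14.4, 17.5 and 12.4 CPM (log2 1.07, SE 0.14, adjusted p = 0.0029). Rgs3 went from 56.6, 70.5 and 37.9 to 31.2, 32.7 and 30.2 CPM (log2 -0.76, SE 0.13, adjusted p = 0.016). Neither pair of groups overlapped. Rgs4 passed in all 12 fits that left out 1 library. Rgs3 was lost without control PBS 1, without control VIP 1 and without control VIP 2, and it did not pass without the block. Rapgef2 (0.77) and Rapgef4 (0.61), exchange factors for the GTPase Rap, of which Rapgef4 is the cAMP sensor Epac2, rose with the block and were picked with their values known. Rapgef2 passed in 8 and Rapgef4 in 0 of 12 fits that left out 1 library. Gad1, which makes GABA, went from 3.43, 3.97 and 2.65 to 13.1, 9.99 and 8.61 CPM (log2 1.65, SE 0.23, adjusted p = 0.0048). Kctd8, an auxiliary subunit of GABA-B receptors, rose by 2.56, and Gad1 and Kctd8 were the only calls among 20 tested GABA genes. Of 30 glutamate, potassium, water and gap-junction genes the 1 call was Kcnk10, a background potassium channel regulated by G proteins, which went from 88.0, 74.4 and 79.9 to 177, 155 and 132 CPM (log2 0.93, SE 0.10, adjusted p = 0.00091). All 3 VIP libraries of Kcnk10 were higher than every PBS library, and the call held in all 12 fits that left out 1 library. This single call was 3.33% of its list, against 1.63% of all tested genes.

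Few metabolic genes were called. Of 31 tested glycogen genes 2 rose and 0 fell, with a median of -0.05. Ppp1r3c, a scaffold that brings protein phosphatase 1 to glycogen, went from 40.0, 45.6 and 51.7 to 144, 98.6 and 106 CPM (log2 1.32, SE 0.16, adjusted p = 0.0018). Ppp1r3g, a scaffold of the same family, went from 0.104, 0.23 and 0.0531 to 1.33, 0.899 and 0.634 CPM (adjusted p = 0.046). The Ppp1r3g levels rest on few counts, and the call held in 2 of 12 fits that left out 1 library. The brain glycogen phosphorylase gene Pygb stayed between 677 and 936 CPM in all 6 libraries (log2 0.04, adjusted p = 0.84), but it passed with GC and length offsets (0.20, adjusted p = 0.030). Of 33 genes of glucose uptake, glycolysis and lactate, Slc2a3 rose and Pfkfb3 fell (list median -0.10). Slc2a3, the glucose transporter GLUT3, went from 41.7, 46.5 and 59.7 to 80.0, 58.3 and 90.8 CPM (log2 0.63, SE 0.11, adjusted p = 0.020). Pfkfb3, which makes the glycolytic activator fructose 2,6-bisphosphate, went from 186, 204 and 195 to 124, 132 and 152 CPM (log2 -0.52, SE 0.08, adjusted p = 0.0090). The Slc2a3 groups overlapped and the Pfkfb3 groups did not, and both calls were lost without control PBS 1 and without control VIP 1. Of 29 sterol genes and 33 fatty acid and lipid genes 0 passed, with medians of -0.17 and -0.09. With GC and length offsets 2 sterol genes rose and 4 fell, and without control PBS 2 there were 2 rises and 0 falls.

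Moderate rises under 2-fold that appeared with the block only were named by the smallest p. Prickle2, a planar cell polarity protein, went from 46.8, 29.1 and 61.2 to 87.8, 77.4 and 95.2 CPM (log2 0.97, SE 0.14, adjusted p = 0.0044). Man2a1, a Golgi mannosidase of N-glycan processing, went from 22.5, 14.9 and 26 to 46.8, 36.6 and 38.6 CPM (log2 0.96, SE 0.13, adjusted p = 0.0035). Kif1b, a kinesin that carries mitochondria and vesicle precursors, went from 980.0, 574 and 909 to 1447, 1333 and 1274 CPM (log2 0.75, SE 0.12, adjusted p = 0.0099). In these 3 genes PBS library 2 was the lowest library, all VIP libraries were above all PBS libraries, and the rises without PBS library 2 were 0.78, 0.84 and 0.57, each still passing. Mest, an imprinted hydrolase-like gene, went from 265, 348 and 399 to 541, 496 and 592 CPM (log2 0.71), and here PBS library 1 was the lowest. The same rule named the TGF-beta receptor anchor Zfyve9 (0.87), the insulin-pathway Rab regulator Tbc1d4 (0.92), the matricellular gene Ccn4 (0.87), the homeobox gene Meis2 (0.68), the syntaphilin relative Sybu (0.68), Uaca (0.59) and Ss18l1 (0.57), a subunit of neuronal BAF chromatin remodelling complexes. Sybu did not pass with GC and length offsets (0.36, adjusted p = 0.27), and of the other genes of this paragraph each still passed. Tbc1d4, Ccn4, Sybu, Uaca and Ss18l1 were lost without control PBS 1 and without control VIP 1. Mest was lost without control PBS 1, and Meis2 without control VIP 1. Prickle2, Man2a1, Kif1b and Zfyve9 passed in all 12 fits that left out 1 library.

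**Figure D3:**
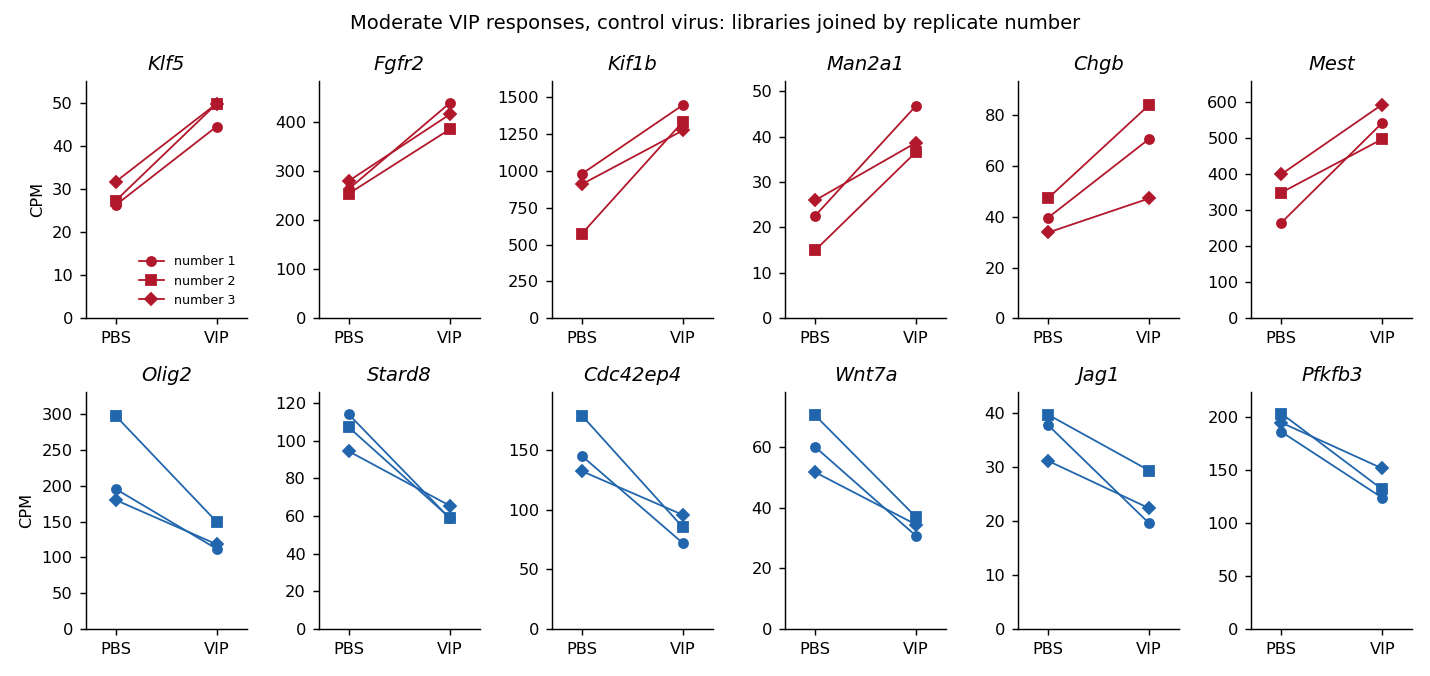
Levels in CPM of 12 genes with changes under 2-fold in the 6 control-virus libraries, with PBS and VIP libraries of the same replicate number joined by a line. Upper panels show rises and lower panels falls; every line moves in the direction of its panel, also for Chgb, where the libraries of the 2 treatments overlap.

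A pair of fibroblast growth factor receptor genes changed in opposite directions. Fgfr2 went from 264, 255 and 280.4 to 439, 386 and 416 CPM (log2 0.63, SE 0.08, adjusted p = 0.0022), with no overlap. Fgfr3, the receptor that marks astrocytes, went from 169.8, 253 and 164 to 127, 153 and 136 CPM (log2 -0.48, SE 0.10, adjusted p = 0.032). The highest Fgfr3 value was that of control PBS 2, and the fall was -0.37 without that library. Fgfr2 passed in all 12 fits that left out 1 library, and Fgfr3 in 3. Of the 40 tested growth factor ligands and receptor kinases 1 rose and 2 fell, the second fall being Pdgfb, a ligand for mural and progenitor cells, from 80.2, 89.8 and 69.5 to 47.4, 47.1 and 50.4 CPM (log2 -0.72, adjusted p = 0.0099). Without control PBS 1, or without control VIP 1, Fgfr2 rose and 0 fell.

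Several genes that act on the actin cytoskeleton changed. Cdc42ep4, an effector that binds active Cdc42, went from 145, 179 and 132 to 71.9, 85.1 and 95.6 CPM (log2 -0.85, SE 0.12, adjusted p = 0.0042). Stard8, which carries a lipid-binding START domain, went from 114, 107 and 94.3 to 58.7, 59.1 and 65.5 CPM (log2 -0.78, SE 0.10, adjusted p = 0.0033). Every VIP library was below every PBS library in both genes, and both passed in all 12 fits that left out 1 library. The formin-like Fhdc1 went from 57.3, 65.3 and 39.8 to 26.9, 29.5 and 27.5 CPM (log2 -0.93). Espn, an actin bundler of microvilli and stereocilia, rose from 0.935, 2.30 and 1.22 to 11.3, 6.10 and 11.7 CPM (log2 2.66, SE 0.36, adjusted p = 0.0040).

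Targets of the actin-sensing factors SRF and MRTF and of the Hippo effector YAP had few calls, all of them falls in the fit described here. Of 27 tested SRF/MRTF genes 2 fell and 0 rose, and 22 had a negative fold change (median -0.23, and -0.09 with GC and length offsets). The median over all tested genes was -0.02, and 0.03 with these offsets. With the offsets 2 genes of this list rose and 3 fell. Srf went from 48.1, 74.7 and 60.1 to 34.5, 40.8 and 48.8 CPM (log2 -0.55, SE 0.12, adjusted p = 0.044), and its groups overlapped. Zyx, a focal adhesion protein, went from 82.8, 131 and 83.6 to 61.0, 70.6 and 66.1 CPM (log2 -0.56, SE 0.11, adjusted p = 0.026). Control PBS 2 was the highest library in both, and without it Srf was lost (adjusted p = 0.053). Of 30 Hippo and YAP genes 3 fell and 0 rose: Tead4 (-0.83), the DNA partner of YAP, the YAP target Ccn2 (-0.66) and the adhesion protein gene Ajuba (-0.48). Ccn2 is also in the immediate-early list. Its values were 480.0, 504 and 235 CPM with PBS and 278, 260.1 and 201 CPM with VIP, so PBS library 3 lay inside the VIP range. Tead4 did not pass with GC and length offsets (adjusted p = 0.058). All 5 calls of these 2 lists were absent without control PBS 1 and without control VIP 1, and none passed without the block.

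Developmental signalling genes fell in small numbers. Of 31 tested Notch genes 2 fell and 0 rose, and 25 had a negative fold change (median -0.23, and -0.14 with GC and length offsets). The median over all tested genes was -0.02, and 0.03 with these offsets. Lfng, a glycosyltransferase that modifies Notch receptors, went from 163, 199 and 166 to 73.1, 81.5 and 112 CPM (log2 -1.0, SE 0.13, adjusted p = 0.0025). Jag1, a Notch ligand, went from 37.8, 39.7 and 31.2 to 19.6, 29.4 and 22.4 CPM (log2 -0.61, SE 0.11, adjusted p = 0.024). Neither gene overlapped between treatments, and the Notch target genes Hes5 (-0.96, adjusted p = 0.15) and Hes1 (-0.61, adjusted p = 0.10) did not pass. Lfng passed in all 12 fits that left out 1 library and Jag1 in 7, with the latter lost without control PBS 1 and without control VIP 1 among others. Of 49 Wnt genes 2 rose and 2 fell. Wnt7a, a glial and neuronal Wnt ligand, went from 60.1, 70.5 and 51.7 to 30.7, 37.0 and 34.5 CPM (log2 -0.83, SE 0.11, adjusted p = 0.0040), with no overlap and a call in all 12 such fits. The Wnt-responsive factor gene Tcf7 fell (-0.61), the R-spondin receptor gene Lgr5 rose from 0.468, 0.23 and 0.955 to 6.60, 2.00 and 3.17 CPM (log2 2.80), and the receptor gene Fzd6 rose by 0.49. Fzd6 passed in 0 of 12 such fits, and without control PBS 1 or control VIP 1 Wnt7a was the single Wnt call. Of 47 BMP and TGF-beta genes 3 fell and 0 rose, namely the ligand Tgfb3 (-0.54), the inhibitory Smad6 (-0.63) and the BMP-regulated Smad9 (-0.41), with 0 calls without control PBS 1, without control VIP 1 or without the block. With GC and length offsets 2 genes of this list rose and 4 fell.

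Some Hedgehog genes were looked at with their values known. Ptch1, the main Hedgehog receptor, went from 430.0, 289 and 363 to 280.5, 235 and 268 CPM (log2 -0.45, SE 0.08, adjusted p = 0.022). Hhip, a decoy that binds Hedgehog ligands, went the opposite way, from 5.77, 2.59 and 14.9 to 32.0, 17.4 and 31.5 CPM (log2 2.00, SE 0.29, adjusted p = 0.0057). Neither gene overlapped between treatments. The pathway factors Gli1 (-0.53, adjusted p = 0.10) and Gli2 (-0.52, adjusted p = 0.063) did not pass. Nor did Gas1, Smo, Boc, Sufu, Gli3 and Cdon, with log2 fold changes from -0.29 to 0.03 (adjusted p = 0.24 to 0.97). Without control PBS 1 both Ptch1 and Hhip were lost, and neither passed without the block. Ptch1 passed in 5 of 12 fits that left out 1 library, and Hhip in 11.

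Further moderate falls named by the smallest p were led by Olig2, a transcription factor of the oligodendrocyte lineage that some astrocytes keep. It went from 196, 298 and 180.3 to 112, 149.9 and 118 CPM (log2 -0.81, SE 0.11, adjusted p = 0.0040), with no overlap and a call in all 12 fits that left out 1 library. The highest value was control PBS 2, and the fall without it was -0.68. The lineage markers as a list summed to 1472, 1895 and 1407 CPM with PBS and 1241, 1345 and 1289 CPM with VIP. This was lower in every VIP library (two-sided exact permutation test p = 0.1, the smallest that 3 against 3 allows). Olig2 and Olig1 are both part of this sum. Olig1 alone held 637, 1018 and 590 CPM of it with PBS and 548, 646 and 534 CPM with VIP. The sum without these genes was not tested. Olig2 was the 1 call among 17 tested markers, while Olig1 (-0.35, adjusted p = 0.16) and Sox10 (-0.31, adjusted p = 0.41) did not pass. Of other lineage factors, looked at with their values known, Sox8 (-0.61, adjusted p = 0.036) and Nkx2-2 (-0.47, adjusted p = 0.045) fell, and they passed in 3 and 0 of 12 fits that left out 1 library. In bulk RNA fewer cells of a type and less RNA per cell cannot be told apart. Erf, an ETS repressor, went from 123, 178 and 127 to 63.2, 89.8 and 97.3 CPM (log2 -0.77, SE 0.12, adjusted p = 0.0081). Hdac7, a class IIa histone deacetylase, fell by 0.66 on the log2 scale, whereas Hdac4, of the same class and chosen after its values were seen, rose by 0.74. The rule also named the secreted TGF-beta binder Vasn (-0.92), the LIM-domain cofactor Lmcd1 (-0.95), the secreted proteoglycan Tsku (-0.65), the phosphatase Ptpn21 (-0.62), the sialyltransferase St3gal4 (-0.68), Plekhh3 (-0.67), the polarity protein Crb2 (-0.52), the potassium channel Kcnc1 (-0.52) and the exchange factor Arhgef4 (-0.46). Without control VIP 1, Erf and all of these but Lmcd1 were lost. Among the largest falls were also Sh3rf2 (-1.11), Palm3 (-1.0), the lipoprotein-linked receptor Gpr146 (-0.99) and Slc25a48 (-0.95). Gpr146 went from 68.3, 88.9 and 63.2 to 31.2, 40.9 and 38.1 CPM and passed in all 12 such fits, as did Sh3rf2. Slc25a48 passed in 6 and Palm3 in 3, and Palm3 was lost without control PBS 2 (adjusted p = 0.070) among others.

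Inflammatory, matrix and stress genes gave few rises in the fit described here. Of 26 tested chemokine and cytokine genes Ptgs2 and Il1b rose and 0 fell. The list had 5 rises and 0 falls with GC and length offsets, and 0 calls without the block. Ptgs2, the inducible cyclooxygenase, went from 5.25, 3.16 and 2.34 to 18.8, 17.3 and 7.13 CPM (log2 2.00, SE 0.27, adjusted p = 0.0033), with no overlap. Il1b went from 0.831, 0.862 and 1.86 to 3.38, 1.3 and 6.02 CPM (log2 1.55, adjusted p = 0.042), overlapped between treatments and passed in 3 of 12 fits that left out 1 library. Of 50 matrix genes Lama1 (1.35), a laminin chain, and the protease Adamts9 (1.23) rose, both in all 12 such fits. Of 37 stress genes Txndc11 (1.85), a thioredoxin-domain protein of the endoplasmic reticulum, and the chaperone partner Bag3 (0.85) rose, and no heat shock protein or unfolded-protein sensor of the list passed. Txndc11 passed in all 12 such fits and Bag3 in 3. The cell cycle list had 1 call of 42, Plk2 (0.49, adjusted p = 0.044, passing in 2 of 12 such fits), a kinase induced by activity in neurons. That was 2.38% of the list, and the matrix calls were 4% of theirs, against 1.63% of all tested genes. The interferon list had 0 calls of 38 and the neurotrophic list 0 of 23, with medians of 0.08 and 0.22. With GC and length offsets they had 2 and 1 rises and 0 falls.

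Summed marker levels overlapped between treatments for every cell type looked at but the oligodendrocyte lineage. Astrocyte markers summed to 13559, 14987 and 14781 CPM with PBS and 13190, 13433 and 15304 CPM with VIP (two-sided exact permutation p = 0.7), and Gfap measured 1492, 1565 and 1108 CPM with PBS and 1548, 1224 and 1206 CPM with VIP. Astrocyte markers were thus abundant in all 6 libraries, and markers of other cell types were present too. Microglial markers summed to 2015 to 3784 CPM with PBS and 1915 to 4007 CPM with VIP, with the highest value at number 3 in both treatments. Neuron markers summed to 410 to 549 CPM with PBS and 483 to 584 CPM with VIP (exact permutation p = 0.3). The median log2 fold change of 17 tested neuron markers was 0.36, and 0.09 without control PBS 2. Fibroblast and mural cell markers summed to 3623 to 5825 CPM with PBS and 3347 to 4142 CPM with VIP. Reactive astrocyte genes had 3 rises among 26 tested, Ptx3 (0.74), Cd44 (0.49) and S1pr3 (0.47), and their summed level was 9942 to 12875 CPM with PBS and 10650 to 11342 CPM with VIP. All 3 were lost without control PBS 1 and without control VIP 1. The part of cell composition in the gene results was not tested.

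The numbered pairs differed in the size of the response. Across the 184 rises the median difference of log2 CPM was 1.29 in pair 1, 1.18 in pair 2 and 0.80 in pair 3, and across the 90 falls it was -0.58, -0.75 and -0.43. Every one of the 274 genes had the same direction in all 3 pairs, against 26.5% of all tested genes, and 170 rises and 73 falls did not overlap between treatments, against 9.8% of all tested genes. These calls were chosen on the same libraries, so the shares describe them and test nothing. The 6 ACREB libraries were not part of the contrast, though they share its fit and replicate block. There the log2 fold change of VIP over PBS had the same sign for 183 of the 184 rises and 88 of the 90 falls, with medians of 0.50 and -0.28. It was positive for 51.4% of all tested genes. Within every ACREB pair the direction held for 165 of the rises and 81 of the falls, against 12.2% of all tested genes that were higher in all 3 pairs and 13.1% that were lower. The spread among the ACREB libraries entered the test that chose these genes. The shares within every ACREB pair are thus not an independent check. With ACREB 13 of the rises and 0 of the falls passed the test by themselves. The difference of the VIP response between the viruses, tested as an interaction by edgeR's quasi-likelihood test, passed for 0 genes, with 461 at an unadjusted p under 0.05, among them 102 of the rises and 37 of the falls. The rises and falls were chosen on the control-virus difference, which is part of this interaction. Their numbers among the 461 genes thus describe them and test nothing. DESeq2 was not run for the interaction.

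**Figure D4:**
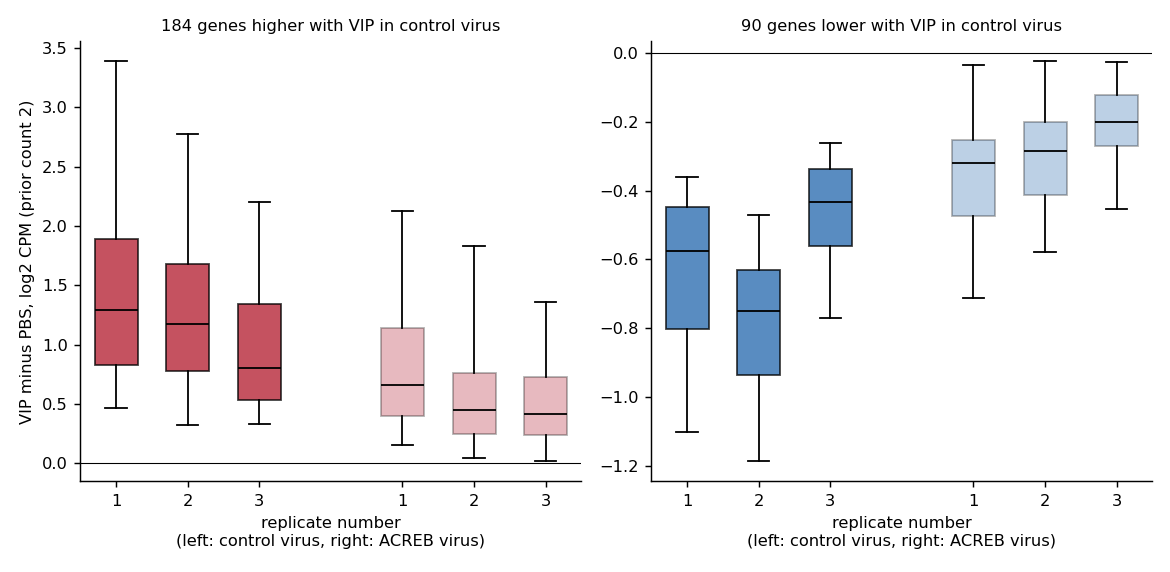
Differences of log2 CPM (prior count 2) between the VIP and PBS library of each number, for the 184 genes that rose (left) and the 90 that fell (right) in control virus; boxes span the middle 50% of genes, the line is the median and whiskers reach the 5th and 95th percentiles. Dark boxes are control virus, on which the genes were chosen, and pale boxes are ACREB virus, whose medians lie nearer to 0 in every pair.

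**Figure D5:**
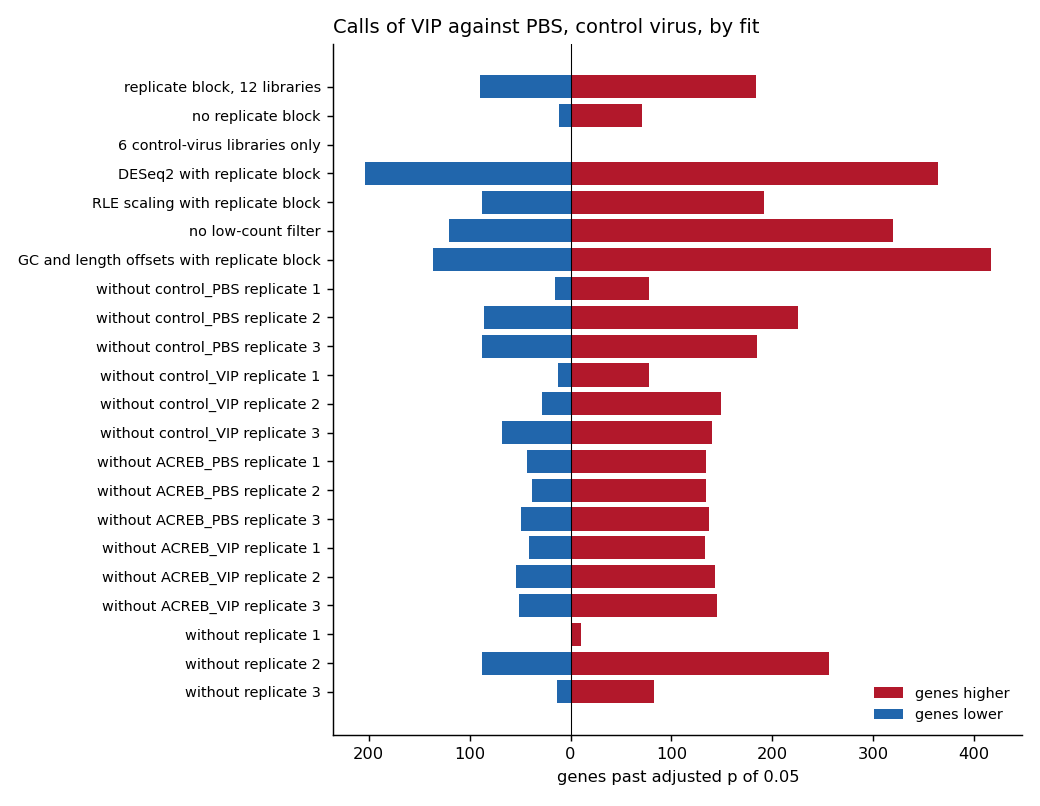
Number of genes called higher (red, to the right) and lower (blue, to the left) at an adjusted p of 0.05 for each way of fitting the data. The top bars are the fit described here, with 184 and 90 genes, and the counts run from 0 in both directions with the 6 control-virus libraries alone to 417 higher with GC and length offsets and 204 lower with DESeq2.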

How the data were processed

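The table deposited by the authors holds raw counts for Ensembl genes in 12 library columns. The submitters' processing notes name HTSeq 0.11.2, STAR 2.7.1a, Trimmomatic 0.39, edgeR, R 3.6.1 and the GRCm38 (mm10) genome. Per the labels' protocols, libraries were strand-specific with 150 bp paired reads. No annotation release or strand setting is given in the sources used here. Symbols matched 55480 of 55573 identifiers (GENCODE, GRCm38), and 0 rows named no gene.

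In R 4.3.3, edgeR 4.0.16 filtered genes by group (filterByExpr), scaled by TMM and fitted 1 quasi-likelihood model to all 12 libraries, with a mean per virus and treatment and a block for the replicate number (6 residual degrees of freedom). Alternatives included the fit without the block and DESeq2 1.42.0. CPM use TMM-adjusted library sizes. The SE was taken as the absolute log2 fold change over the square root of F. GC and length offsets are splines (5 degrees of freedom each) per library. Pairing was checked: deviations from the group means correlated across genes in 18 of 18 pairs of libraries with the same number (r 0.132 to 0.679). Among libraries of other groups, each of the 12 correlated best with one of its own number. Pairs of different number reached an r of 0.184 at most. The control-virus pairs 1, 2 and 3 had r of 0.388, 0.184 and 0.132, so pairs 2 and 3 were no closer than the best mismatched pair.

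The members, the 41 gene lists and the naming rule were chosen with earlier results of these data known. Among genes past the threshold, in the same direction in 3 pairs, with at least 2 CPM in the higher group and without clone-type symbols, the rule took the 10 largest rises and 10 largest falls. It also took the 12 rises and 12 falls under 2-fold with the smallest p that did not pass without the block, up to 5 members of each list, and a set always named (Creb1, Crem, Fos, Nr4a1, Per1, Sik1, Ppp1r3c, Ppp1r3g, Gys1, Pygb, Vipr1, Vipr2, Adcyap1r1 and Gfap). It gave 106 genes, 97 of them called. Of 11 called genes with clone-type symbols, 10 were higher and none is named as a result. The fit was tested on simulated data. It recovered 18 of 67 genes changed 1.5-fold, 49 of 67 changed 2-fold and 66 of 66 changed 4-fold. A gene without a call may thus still have changed. Results for 1 gene and 1 gene list are not reported here.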

Additional observations from a re-analysis of the deposited data

How the results depend on the processing

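The counts of calls depended on the fit, and no call changed direction: 97 of 97 named calls, and all 184 rises and 90 falls, kept their sign in every fit. Without the replicate block edgeR's quasi-likelihood test called 71 rises and 11 falls, all among the original calls. With the 6 control-virus libraries alone and the block, it called 0 and 0 (smallest adjusted p = 0.135, with 482 higher and 287 lower at an unadjusted p under 0.05, among them all 184 and 90). DESeq2 with the block called 364 and 204, RLE scaling 192 and 88, no filter on low counts 320 and 120, and GC and length offsets 417 and 136. Leaving out 1 library gave 78 to 226 rises and 12 to 88 falls: 15 falls without control PBS 1, 12, 28 and 68 without control VIP 1, 2 and 3, 43, 38 and 49 without ACREB PBS 1, 2 and 3, and 41, 54 and 51 without ACREB VIP 1, 2 and 3. Leaving out 1 replicate number gave 10 to 256 and 0 to 88, with 10 and 0 without number 1 (635 higher and 494 lower at an unadjusted p under 0.05) and 83 and 13 without number 3. In the fits without 1 library, 74 of the 184 rises and 10 of the 90 falls passed all 12. Of the 97 named calls 40 did, and 57 were lost at least once; 43 remained without control PBS 1 and 42 without control VIP 1. Depth limits the low genes: Trh, Cartpt, Crh and Ppp1r3g lay at or below about 1 CPM with PBS.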

Other observations

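Several strong rises belong to no list above. Zdbf2, an imprinted gene of unknown biochemical role, went from 8.21, 3.74 and 13.0 CPM with PBS to 97.6, 45.5 and 55.3 CPM with VIP (log2 3.05, SE 0.33, edgeR adjusted p = 0.0011). Tinf2, a component of the shelterin complex at telomeres, went from 19.1, 30.1 and 27.2 to 224, 123 and 133 CPM (log2 2.62, SE 0.27, adjusted p = 0.00077). No VIP library overlapped a PBS library in either gene, and both overlap a gene on the opposite strand (Gm24513 and Gmpr2), so their counts are uncertain. Srgap1, which regulates Rac and Cdc42 downstream of Slit and Robo, went from 41.7, 47.1 and 51.2 to 179, 113 and 144 CPM (log2 1.62, adjusted p = 0.00078). Slc7a11, the cystine-glutamate exchanger of astrocytes, went from 4.62, 3.39 and 6.05 to 19.0, 19.9 and 9.03 CPM (log2 1.76, adjusted p = 0.039). Homer1, a scaffold of group I metabotropic glutamate receptors, went from 28.7, 14.7 and 24.4 to 65.8, 48.5 and 39.8 CPM (log2 1.19, adjusted p = 0.0059). All 3 were chosen after their values were seen and did not overlap between treatments, and Slc7a11 passed in 5 of 12 fits that each left out 1 library, being lost without control PBS 1, PBS 2, VIP 1 or VIP 2 among others.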
